A study of Mus musculus with 8 samples.

Results

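Imprinted genes are expressed mainly from the copy inherited from 1 parent, and 41 of them, among the 54735 genes of the count table, were followed in the ventral tegmental area (VTA) of juvenile mice. They were chosen by name, as genes of known imprinted clusters, with earlier results of these data known. They were grouped by the parental copy mainly expressed in the mouse. The sets hold 23 paternally expressed genes, 16 maternally expressed genes, and 2 (Grb10 and Gnas) listed as depending on the transcript or the cell type. The parental copy is textbook knowledge here, since the reads were counted per gene and not per allele. Genes of the paternal and maternal sets can also differ in this by transcript or cell type, and a punch mixes cells. The question was how these genes compared between mice exposed to early life social stress (SS) and unhandled controls (CTR). All 8 mice were of the DBA2/J strain, were labelled as male and were given the age of postnatal day 21, with 4 mice per group (the study's methods place dissection on the day after the last exposure). SS pups had spent 30 min per day with an unfamiliar adult male of another strain from day 14 to day 21, while CTR litters were left undisturbed. Left and right VTA punches of each mouse were pooled into 1 library, so each value below belongs to 1 mouse. Up to 2 mice of a sex could come from 1 litter, and the litters of these mice are not given in the sources used here.

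Imprinting is set in the germ line by DNA methylation at control regions, which is kept on 1 parental copy after fertilization and decides which genes of a cluster are read from that copy. Because only 1 copy is active, the amount of product depends on that copy alone. Many imprinted genes act in fetal growth and, in the brain, in neurons of the hypothalamus and midbrain that serve feeding, maternal care and sleep.

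Library totals lay between 20036086 and 47319997 counts. CPM stands for a gene's reads per M reads of its library, scaled by TMM, and a log2 fold change is SS over CTR with its standard error (SE). Values per mouse are listed by replicate number, which runs 1, 2, 3, 5 in CTR and 2, 3, 4, 5 in SS. The libraries were not alike in ways that the groups do not explain. CTR-5 and SS-5 held 14997 and 6551 counts of Xist, the RNA of the inactive X chromosome, against 0 to 3 in the other 6 libraries, and had 3 and 0 counts over 4 Y-linked genes against 2293 to 7892, which goes against the male label of these 2 mice. CTR-1 and CTR-2 were thinner at low levels: of 1991 genes with a mean of 1 to 3 CPM, 434 and 355 had no count in them, compared with 1 to 94 in the others. Values without the 2 Xist-positive libraries, and without CTR-1 and CTR-2, are given beside each of the 10 genes with an unadjusted p under 0.05. A bulk punch cannot tell fewer cells of a type from less RNA per cell.

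Of the 41 genes, 37 had enough counts to be tested. None passed an adjusted p of 0.05 in edgeR's quasi-likelihood test, where 0.0847% of all 16538 genes tested did, and none passed 0.10, where 0.145% did. At an unadjusted p under 0.05 there were 10 of the 37 (27.0%), beside 6.55% of all genes tested. Of these, 8 were higher in SS (2.85% of all genes) and 2 were lower (3.7% of all genes). The count of 10 was 6 (6.95, 4.47 and 3.76% of all genes) without CTR-3, SS-2 or SS-3 respectively, and 6 (6.34%) without CTR-1 and CTR-2 together. It was 12 without the 2 Xist-positive libraries, where the share of all genes was also higher (10.6%). The groups did not overlap for 4 genes (4.67% of all genes in either direction), namely Calcr, Zim1 and Grb10, all higher in SS (2.47% of all genes), and Dlk1, lower in SS (2.21% of all genes). The genes share clusters and libraries, and no test was made over the list, which was chosen with earlier results of these data known. The median log2 fold change was 0.14 over the 37 genes, beside 0.00 over all genes tested. In SS 22 were higher (59.5%, beside 50.6% of all genes) and 15 lower. Without CTR-1 the median was 0.065. Single genes ran from -1.05 for Dlk1 to 1.84 for Calcr, and between -0.49 and 0.57 without those 2.

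**Figure D1:**
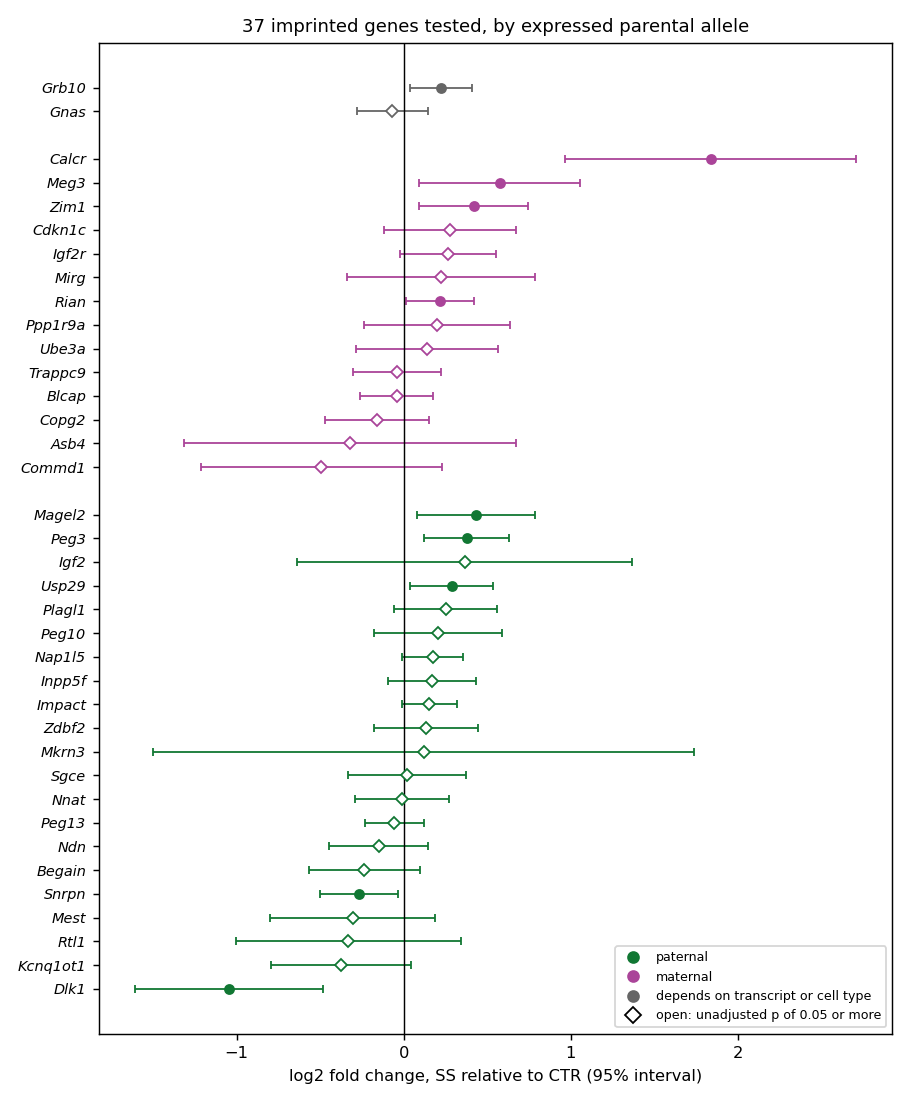
Log2 fold change of SS relative to CTR with its 95% interval (edgeR) for the 37 imprinted genes tested, grouped by the parental copy expressed, n = 4 mice per group. Filled circles have an unadjusted p under 0.05. Calcr at 1.84 and Dlk1 at -1.05 stand apart, and the other 35 points lie between -0.49 and 0.57.

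How far each difference was bounded varied between genes. The 95% interval reached 0.17 to either side of the estimate for Impact, 0.33 in the median and 1.62 for Mkrn3, which had 341 counts in all. For 15 of the 37 genes the whole interval lay inside -0.5 to 0.5, and for 29 inside -1 to 1. The 15 were Ndn, Snrpn, Sgce, Nap1l5, Nnat, Impact, Zdbf2, Inpp5f, Peg13, Rian, Copg2, Blcap, Trappc9, Grb10 and Gnas. The widest belonged to Calcr, Igf2, Asb4 and Mkrn3, which were among the least abundant of the genes tested.

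Per exon length, the levels of the imprinted genes differed widely. Nap1l5, a nucleosome assembly protein gene in an intron of Herc3, was the most abundant, with 796 ± 67.6 CPM per kb in CTR and 897 ± 73.2 in SS (SD, n = 4 each). Next in order of their mean came Gnas, Nnat, Ndn, Meg3, Impact, Snrpn, Peg13, Peg3 and Dlk1. Nap1l5 stood above the next gene by more than its spread, whereas Gnas had 223 ± 35.2 CPM per kb in CTR and Nnat 206 ± 35.4, a difference smaller than either SD, so that their order is not resolved. At the low end were Igf2, Mkrn3 and Kcnq1ot1, all under 1 CPM per kb in both group means. Together the 41 genes took 1.12 to 1.33% of the counts of a CTR library and 1.41 to 1.45% of an SS library, and without Meg3 0.970 to 1.10% and 1.03 to 1.11%, which overlap.

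**Figure D2:**
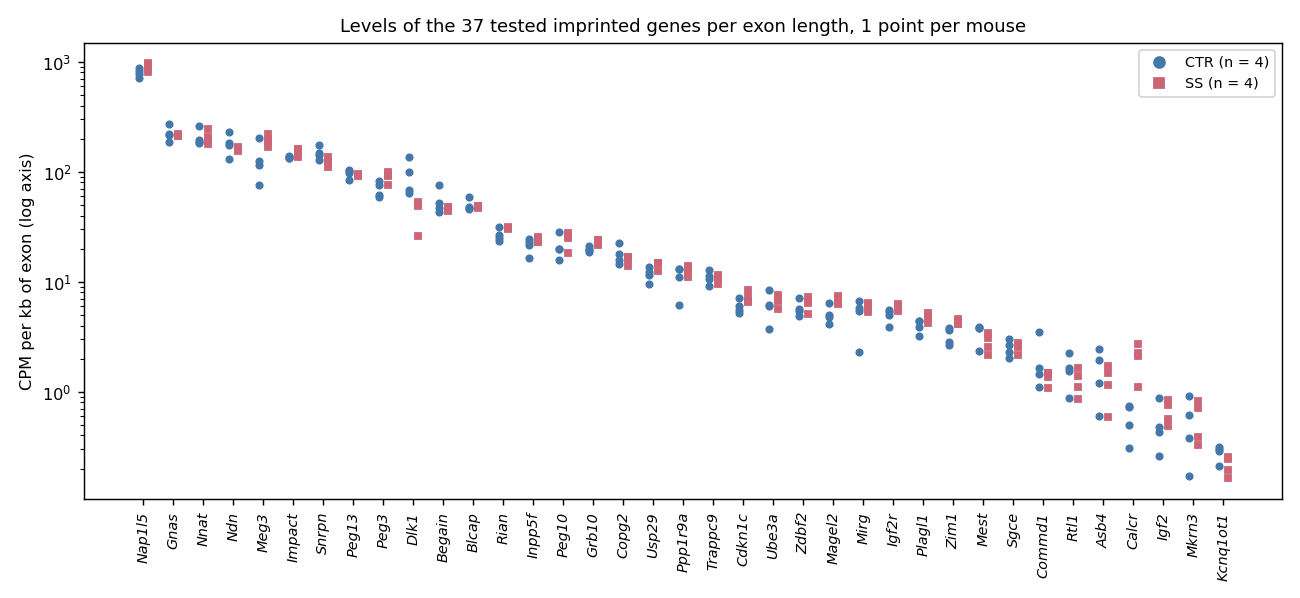
CPM per kb of exon (log axis) of the 37 imprinted genes tested, ordered by their mean, with 1 point per mouse (circles CTR, squares SS, n = 4 each). Nap1l5 lies highest, at 717 to 966 CPM per kb, and Kcnq1ot1 lowest.

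Of the 4 genes not tested, Phlda2, a placental growth regulator, and Snurf had no count in any library, which allows up to 0.0622 to 0.155 CPM per library. All 216 exon bases of Snurf are shared with Snrpn, so reads from it could not be assigned and its 0 says nothing of its level. H19, a maternally expressed long RNA of the fetal period, had 0 to 9 counts per library. Dio3, the enzyme that inactivates thyroid hormone, had 77 counts in CTR-2, 12 in SS-2 and none in the other 6 libraries.

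The Dlk1-Dio3 cluster on chromosome 12 holds both the most negative difference (Dlk1) and the gene with the most reads of the set (Meg3). Dlk1 encodes a transmembrane relative of the Notch ligands and is read from the paternal copy (12, 109452823 to 109463336, plus strand, GRCm38). It had 778, 388, 363 and 562 CPM in CTR and 301, 288, 275 and 148 CPM in SS. Every SS mouse was below every CTR mouse, with SS-5 lowest. The log2 fold change was -1.05 (SE 0.26, 95% interval -1.61 to -0.48, edgeR unadjusted p = 0.00164, adjusted p = 0.459), and the exact two-sided permutation p was 0.029, the smallest that 4 against 4 mice can give. Without the 2 Xist-positive libraries it was -0.82 and without CTR-1 and CTR-2 -0.87. Dlk1 is also known as a gene of midbrain dopamine neurons, so the markers of these cells are given beside it. The summed level of 10 dopamine neuron markers was 1873, 948, 818 and 1744 CPM in the CTR libraries in the same order, and 170, 149, 160 and 256 CPM in SS. Within CTR the libraries had the same order for Dlk1 and for this sum, while in SS the library with the highest sum, SS-5, had the lowest Dlk1. The part of dopamine neuron content in the Dlk1 difference was not tested.

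Meg3, a maternally expressed long non-coding RNA of the same cluster (12, 109541001 to 109571726, plus strand), had 2103, 1377, 2276 and 3662 CPM in CTR and 3064, 3342, 3615 and 4007 CPM in SS. CTR-1, CTR-2 and CTR-3 lay below all SS mice and CTR-5 lay among them. The log2 fold change was 0.57 (SE 0.22, unadjusted p = 0.024, adjusted p = 0.755). It was 0.80 without the Xist-positive libraries (unadjusted p = 7.25e-04), 0.87 without CTR-5 alone and 0.24 without CTR-1 and CTR-2 (unadjusted p = 0.152). Rian, the host of many small nucleolar RNAs downstream of Meg3, had 457, 426, 486 and 569 CPM in CTR and 564, 566, 546 and 579 CPM in SS. Its log2 fold change was 0.22 (SE 0.09, unadjusted p = 0.0359), CTR-5 again lay among the SS mice, and the value was 0.29 without the Xist-positive libraries (unadjusted p = 0.00491) and 0.10 without CTR-1 and CTR-2 (unadjusted p = 0.235). Its unadjusted p was under 0.05 in 10 of 18 alternatives. Mirg, which hosts microRNAs, and the paternally expressed Begain and Rtl1 had log2 fold changes of 0.22 (SE 0.26), -0.23 (SE 0.15) and -0.33 (SE 0.31), with overlapping groups. Mirg was at -0.02 without CTR-2, and without CTR-1 Begain was at -0.03 and Rtl1 at -0.11. Whether the parental sets of the cluster differed was not tested.

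The promoters of Dlk1 and Meg3 are shown because the estimates of these neighbours had opposite signs. Each run covers 250 bases before to 50 after the start in RefSeq (GRCm38.p6), 5′ to 3′ on the gene's strand, with each CG, the dinucleotide that can be methylated, in capitals. The windows are chr12:109452573-109452872 for Dlk1 and chr12:109540746-109541045 for Meg3, both on the plus strand, with 9 and 13 CG. Methylation was not measured in these mice.
Dlk1: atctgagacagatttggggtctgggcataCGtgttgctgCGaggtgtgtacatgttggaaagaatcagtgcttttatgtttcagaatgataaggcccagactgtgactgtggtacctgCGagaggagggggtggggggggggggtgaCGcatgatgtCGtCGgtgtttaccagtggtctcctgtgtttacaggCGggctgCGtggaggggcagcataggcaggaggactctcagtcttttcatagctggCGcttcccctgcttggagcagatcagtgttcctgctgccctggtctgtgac
Meg3: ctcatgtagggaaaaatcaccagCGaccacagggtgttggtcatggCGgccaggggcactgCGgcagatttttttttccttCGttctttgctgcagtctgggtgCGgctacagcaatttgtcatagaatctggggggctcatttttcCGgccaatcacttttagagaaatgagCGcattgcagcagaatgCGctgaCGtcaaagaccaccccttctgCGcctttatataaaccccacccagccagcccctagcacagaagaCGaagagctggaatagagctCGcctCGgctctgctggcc

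The ratio of Meg3 to Dlk1 counts within a library does not depend on normalization. It was 2.70, 3.55, 6.27 and 6.52 in CTR and 10.2, 11.6, 13.2 and 27.0 in SS. All SS mice were above all CTR mice, and SS-5 was far above the rest. This ratio was 1 of 14 formed between neighbours, was chosen after the values were seen and was not tested. Groups overlapped for 11 of the 14, the others being Magel2 to Ndn and Calcr to Peg10.

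**Figure D3:**
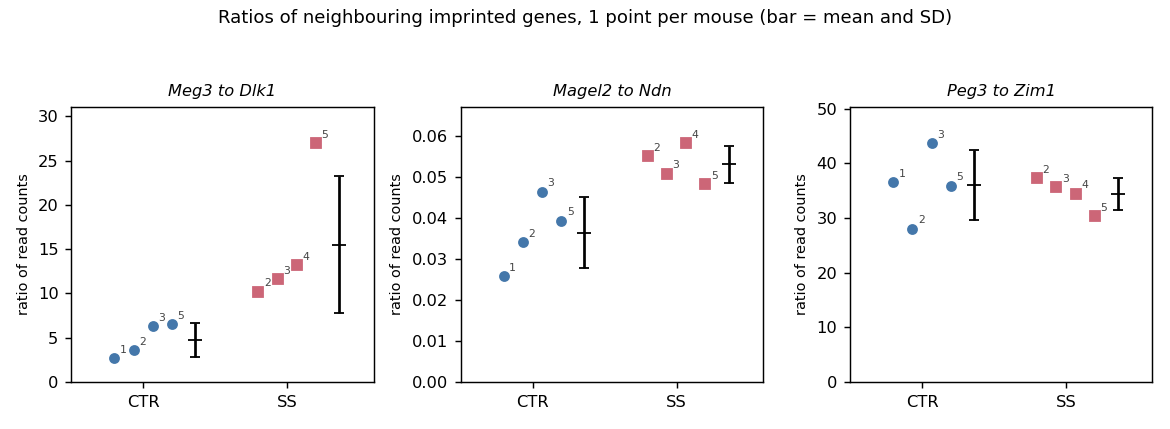
Ratios of read counts between neighbouring imprinted genes, 1 point per mouse with its replicate number, and the mean with SD at the right of each group (n = 4). The Meg3 to Dlk1 ratio is 2.70 to 6.52 in CTR and 10.2 to 27.0 in SS, the Magel2 to Ndn ratio also does not overlap, and the Peg3 to Zim1 ratio does.

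Rtl1, a gene derived from a retrotransposon, is overlapped on the other strand by microRNAs made from the maternal copy. RefSeq places 11 mature microRNAs there, with 11 different seeds. All 11 are perfectly complementary to the Rtl1 transcript, which follows from their place on the strand opposite its exons. The Rtl1 values are 14.3, 10.4, 5.53 and 9.91 CPM in CTR and 7.05, 8.92, 10.4 and 5.51 CPM in SS, which overlap. Mature microRNAs were not measured. Below, 4 of them are given to show this pairing, 5′ to 3′ with the seed (bases 2 to 8) in capitals.
mmu-miR-127-3p: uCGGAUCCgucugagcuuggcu
mmu-miR-136-5p: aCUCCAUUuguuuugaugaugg
mmu-miR-431-5p: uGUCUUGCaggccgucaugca
mmu-miR-433-3p: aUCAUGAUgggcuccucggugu

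All 3 genes of the Peg3 cluster on chromosome 7 had an unadjusted p under 0.05 with higher means in SS. Peg3, a paternally expressed zinc finger gene needed for maternal care (7, 6703892 to 6730431, minus strand), had 792, 819, 1000 and 1098 CPM in CTR and 1250, 1332, 1222 and 1011 CPM in SS. SS-5 lay inside the CTR range and the other 3 SS mice above it. The log2 fold change was 0.38 (SE 0.12, unadjusted p = 0.00766, adjusted p = 0.697, exact permutation p = 0.0571). It was 0.54 without the Xist-positive libraries (unadjusted p = 2.93e-04) and 0.20 without CTR-1 and CTR-2 (unadjusted p = 0.0679). Usp29, a deubiquitinase gene that starts next to Peg3 and runs the other way, had 172, 246, 207 and 220 CPM in CTR and 265, 269, 269 and 228 CPM in SS. Only SS-5 lay inside the CTR range, and the log2 fold change was 0.29 (SE 0.11, unadjusted p = 0.0261). It was 0.36 (unadjusted p = 0.0197) without the Xist-positive libraries and 0.28 (unadjusted p = 0.0137) without CTR-1 and CTR-2, and its unadjusted p was under 0.05 in 13 of 18 alternatives. Zim1, the maternally expressed zinc finger gene of the cluster (7, 6671269 to 6696450, minus strand), had 21.7, 29.3, 22.9 and 30.6 CPM in CTR and 33.5, 37.5, 35.6 and 33.4 CPM in SS. Its groups did not overlap, with a log2 fold change of 0.42 (SE 0.15, unadjusted p = 0.0161, adjusted p = 0.746, exact permutation p = 0.029). Zim1 was at 0.53 (unadjusted p = 0.0146) without the Xist-positive libraries and at 0.38 (unadjusted p = 0.0236) without CTR-1 and CTR-2. None of the 3 genes passed the adjusted p of 0.05, and the cluster was not tested as a group. The ratio of Peg3 to Zim1 counts overlapped, at 28.0 to 43.7 in CTR and 30.3 to 37.3 in SS.

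The promoter windows of Peg3 and Usp29 share 263 bases on opposite strands, so that the Peg3 window carries most of both, and Zim1 is shown as the maternally expressed neighbour. Peg3 lies at chr7:6730370-6730669 (minus strand, 13 CG) and Zim1 at chr7:6696383-6696682 (minus strand, 20 CG).
Peg3: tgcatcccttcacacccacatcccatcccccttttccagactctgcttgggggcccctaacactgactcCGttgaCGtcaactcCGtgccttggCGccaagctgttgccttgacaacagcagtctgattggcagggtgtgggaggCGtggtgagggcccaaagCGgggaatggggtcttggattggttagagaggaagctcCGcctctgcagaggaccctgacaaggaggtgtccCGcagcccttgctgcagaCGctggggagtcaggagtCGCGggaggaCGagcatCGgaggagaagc
Zim1: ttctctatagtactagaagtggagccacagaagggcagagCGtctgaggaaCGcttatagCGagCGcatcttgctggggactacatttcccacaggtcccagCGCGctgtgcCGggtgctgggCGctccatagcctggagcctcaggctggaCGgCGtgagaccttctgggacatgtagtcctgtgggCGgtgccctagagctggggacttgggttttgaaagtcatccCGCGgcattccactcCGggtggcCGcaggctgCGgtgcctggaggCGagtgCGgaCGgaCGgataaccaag

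Calcr, the calcitonin receptor, had the largest difference of the set. It is a maternally expressed G protein-coupled receptor gene in brain, in the Peg10 cluster of chromosome 6 (6, 3685680 to 3764714, minus strand). Its level was low, with 2.84, 1.21, 1.94 and 2.93 CPM in CTR and 8.78, 10.7, 8.25 and 4.28 CPM in SS. All SS mice were above all CTR mice. The log2 fold change was 1.84 (SE 0.40, 95% interval 0.97 to 2.71, unadjusted p = 6.42e-04, adjusted p = 0.259, exact permutation p = 0.029). DESeq2 called it, with an adjusted p of 0.00301 where 0.419% of all genes were called, and its adjusted p ran from 0.00301 to 0.999 over the alternatives. Its unadjusted p was under 0.05 in all 18 alternatives, and its log2 fold change 2.21 without the Xist-positive libraries and 1.71 without CTR-1 and CTR-2. Calcr is known for its expression in the hypothalamus. Summed levels of 15 markers of the hypothalamus and mammillary region were 114, 154, 112 and 87.8 CPM in CTR and 146, 155, 174 and 217 CPM in SS. Pmch, a hypothalamic peptide gene, had 0.207, 16.7, 1.90 and 6.65 CPM in CTR and 34.3, 32.1, 32.7 and 50.3 CPM in SS, while Avp was at 0 in all libraries. Trh, the gene of thyrotropin-releasing hormone, had 0, 0, 0 and 0.306 CPM in CTR and 0.741, 2.34, 4.97 and 4.35 CPM in SS, also without overlap (edgeR unadjusted p = 0.00207, adjusted p = 0.48). Hdc, which makes histamine, had overlapping groups (log2 fold change 1.80, edgeR unadjusted p = 0.0313). These genes were named after their values were seen. Of 12 of the 15 markers tested, 10 were higher in SS and 2 lower (Lhx9, log2 fold change -2.19, and Pomc, -0.46). Only Pmch, Trh and Hdc had an edgeR unadjusted p under 0.05. The SS library with the highest marker sum, SS-5, had the lowest Calcr of its group, and CTR-2, with the highest sum in CTR, had the lowest Calcr of CTR. The part of tissue from this region in the Calcr difference was not tested.

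A Calcr promoter window is shown as that of the gene with the largest difference, at chr6:3763574-3763873 (minus strand), with 29 CG. The hexamer TGCCGC or its reverse complement GCGGCA, the core bound by ZFP57, was found in 2 places in it, in 27.3% of the 55 windows of 33 imprinted genes and in 11.6% of all 32851 promoter windows. Some of the 55 overlap, and with overlapping ones merged 26.5% of 49 held it. The hexamer contains a CG, and the windows of the imprinted genes had more CG (median 17) than all windows (median 7). A second RefSeq start of Calcr has 4 CG.
Calcr: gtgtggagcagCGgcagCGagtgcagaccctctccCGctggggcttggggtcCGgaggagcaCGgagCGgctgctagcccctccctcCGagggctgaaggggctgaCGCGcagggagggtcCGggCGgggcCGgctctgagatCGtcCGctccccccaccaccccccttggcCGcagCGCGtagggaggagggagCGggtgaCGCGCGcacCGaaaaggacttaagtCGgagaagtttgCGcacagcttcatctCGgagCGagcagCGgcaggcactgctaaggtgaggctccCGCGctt

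The other genes of this cluster were near 0 or uncertain. Peg10, a gene derived from a retrotransposon, and Ppp1r9a, which encodes the actin-binding neurabin, had log2 fold changes of 0.21 (SE 0.18) and 0.20 (SE 0.20), Sgce, a sarcoglycan gene, had 0.02 (SE 0.16), and Asb4, a SOCS box gene at 2.31 to 9.58 CPM, -0.32 (SE 0.46).

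In the Snrpn-Ube3a cluster, the region linked to Prader-Willi and Angelman syndromes, 2 genes of 5 tested had an unadjusted p under 0.05, in opposite directions. Magel2, a paternally expressed MAGE family gene, had 22.0, 23.0, 29.9 and 19.1 CPM in CTR and 34.3, 30.1, 33.4 and 29.0 CPM in SS. Only CTR-3 reached the SS range. Its log2 fold change was 0.43 (SE 0.16, unadjusted p = 0.0197, adjusted p = 0.755, exact permutation p = 0.0571). It was 0.39 without the Xist-positive libraries and 0.38 without CTR-1 and CTR-2, and the unadjusted p rose to 0.058 and 0.0588. Snrpn, a paternally expressed splicing protein gene, had 380, 304, 323 and 277 CPM in CTR and 292, 264, 241 and 271 CPM in SS. CTR-5 lay inside the SS range, and the log2 fold change was -0.27 (SE 0.11, unadjusted p = 0.0289). It was -0.34 without the Xist-positive libraries (unadjusted p = 0.0148) and -0.17 without CTR-1 and CTR-2 (unadjusted p = 0.119), and its unadjusted p was under 0.05 in 11 of 18 alternatives. Snrpn shares 27.3% of its exon bases with another gene on the same strand. Ndn, a MAGE gene beside Magel2, had 849, 672, 643 and 483 CPM in CTR and 622, 592, 572 and 599 CPM in SS. All SS mice lay inside the CTR range, and the log2 fold change was -0.15 (SE 0.14). The ratio of Magel2 to Ndn counts was 0.0259 to 0.0465 in CTR and 0.0483 to 0.0584 in SS and did not overlap. Ube3a, the maternally expressed ubiquitin ligase gene, had a log2 fold change of 0.14 (SE 0.20). Exons of it are overlapped on the other strand over 27.3% of their bases by genes such as Snhg14, and whether counting used strand is not given in the sources used here, so reads from the 2 strands cannot be told apart. Mkrn3, a ring finger gene linked to the timing of puberty, had 0.432 to 2.32 CPM and a log2 fold change of 0.12 (SE 0.74).

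**Figure D4:**
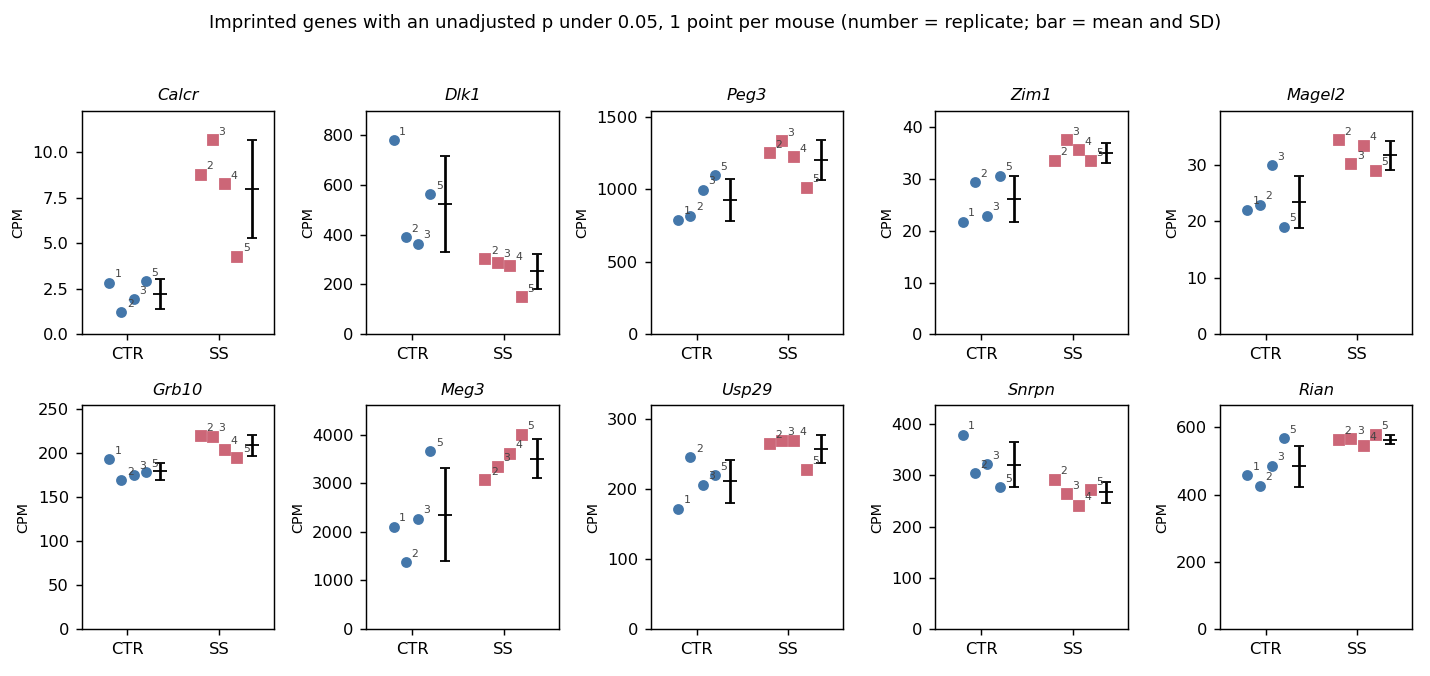
CPM of the 10 imprinted genes with an unadjusted p under 0.05, 1 point per mouse with its replicate number (circles CTR, squares SS), and the mean with SD at the right of each group (n = 4). Calcr, Zim1 and Grb10 are higher and Dlk1 is lower in every SS mouse than in every CTR mouse, while in the other 6 panels at least 1 mouse lies inside the other group's range.

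Grb10, an adaptor protein of the insulin receptor that is maternally expressed in most tissues and paternally in neurons, had 194, 170, 176 and 179 CPM in CTR and 220, 219, 204 and 195 CPM in SS. The gap between the groups was small, 194 CPM in CTR-1 against 195 CPM in SS-5, and the groups overlapped with upper-quartile normalization and with a mean count of at least 50. The log2 fold change was 0.22 (SE 0.09, unadjusted p = 0.0233, adjusted p = 0.755, exact permutation p = 0.029), and it lay between 0.20 and 0.27 in every alternative run, at 0.26 (unadjusted p = 0.0244) without the Xist-positive libraries and 0.24 (unadjusted p = 0.0183) without CTR-1 and CTR-2. Gnas, the G protein subunit gene, had 3022, 2466, 2418 and 2069 CPM in CTR and 2450, 2351, 2355 and 2361 CPM in SS. All SS mice lay within the CTR range, and the log2 fold change was -0.07 (SE 0.10).

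The growth genes gave intervals that include 0. Igf2, the fetal growth factor, had up to 5.05 CPM and a log2 fold change of 0.37 (SE 0.46), and its receptor Igf2r, which clears it, 0.27 (SE 0.13, unadjusted p = 0.0685). Plagl1, a zinc finger gene, and Cdkn1c, an inhibitor of the cell cycle, had 0.25 (SE 0.14) and 0.28 (SE 0.18). Kcnq1ot1, the antisense RNA that silences its cluster, had -0.38 (SE 0.19, unadjusted p = 0.0741). Igf2 shares 62.8% of its exon bases with another gene on its strand, and Cdkn1c, Gnas and Usp29 share 30.7%, 22.0% and 14.3% with genes on the other strand, so that their counts are uncertain to that extent.

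The abundant genes outside these clusters had small estimates, while Mest and Commd1 were less abundant and less certain. Nap1l5 had 1615, 1507, 1424 and 1321 CPM in CTR and 1781, 1751, 1495 and 1592 CPM in SS (log2 fold change 0.17, SE 0.08, unadjusted p = 0.0584). Impact, a translation regulator, had 713, 685, 699 and 688 CPM in CTR and 823, 832, 746 and 699 CPM in SS (log2 fold change 0.15, SE 0.08, unadjusted p = 0.0659). Nnat, a small proteolipid of the endoplasmic reticulum, had 473, 340, 358 and 336 CPM in CTR and 349, 330, 375 and 443 CPM in SS (log2 fold change -0.01, SE 0.13). SS-5 was highest of SS and CTR-1 highest of CTR for this gene. Peg13, a non-coding RNA inside Trappc9, had 461, 482, 487 and 401 CPM in CTR and 445, 446, 434 and 438 CPM in SS (log2 fold change -0.05, SE 0.08). Blcap, the neighbour that contains Nnat, and Trappc9, a subunit of a vesicle tethering complex, had log2 fold changes of -0.04 each (SE 0.10 and 0.12). Inpp5f, a phosphoinositide phosphatase gene, had 0.17 (SE 0.12) and Zdbf2, a zinc finger gene, 0.13 (SE 0.14). Mest, a hydrolase family gene, and Copg2, a coatomer subunit gene, share exon bases on opposite strands and had -0.31 (SE 0.23) and -0.16 (SE 0.14). Commd1, a copper metabolism gene, had -0.49 (SE 0.33), with CTR-1 at 20.6 CPM and the other 7 libraries at 6.47 to 9.76 CPM. Without CTR-1 it had -0.04.

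By parental copy, both sets held genes with differences in either direction. Of 21 paternally expressed genes tested, 12 were higher and 9 lower in SS. Their median log2 fold change was 0.12, with an unadjusted p under 0.05 for 3 higher (Magel2, Peg3, Usp29) and 2 lower (Dlk1, Snrpn). Of 14 maternally expressed genes, 9 were higher and 5 lower, with a median of 0.21 and 4 higher (Calcr, Meg3, Zim1, Rian) and 0 lower at that threshold. Of all genes tested, 50.6% were higher in SS, and at that threshold 2.85% were higher and 3.7% lower. The difference between the 2 sets was not tested.

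Genes that control imprinting, a list of 27, gave 24 tested, with a median log2 fold change of 0.21. Of these, 20 were higher in SS (83.3%, beside 50.6% of all genes) and 4 lower. None passed the adjusted p of 0.05, and 5 (20.8%, beside 6.55% of all genes) had an unadjusted p under 0.05, all higher. Zfp57, the zinc finger protein that protects methylation at control regions, had 13, 7.47, 12.4 and 16.8 CPM in CTR and 17.0, 20.1, 31.2 and 23.8 CPM in SS (log2 fold change 0.89, SE 0.26, unadjusted p = 0.00524, adjusted p = 0.627). Dnmt1, which copies DNA methylation at replication, had 55.5, 63.6, 73.0 and 64.7 CPM in CTR and 82.1, 81.5, 82.5 and 83.8 CPM in SS (log2 fold change 0.36, SE 0.11, unadjusted p = 0.006). The groups of both genes did not overlap, where 2.47% of all genes were higher in SS without overlap. Those of Trim27 did not overlap either (log2 fold change 0.21, edgeR unadjusted p = 0.155). Arid4b, a chromatin protein, had a log2 fold change of 0.46 (SE 0.14, unadjusted p = 0.00534), and its groups overlapped at CTR-5 (62.8 CPM) and SS-2 (62.1 CPM). For Zfp57, Dnmt1 and Arid4b the unadjusted p stayed under 0.05 in all 18 alternatives.

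**Figure D5:**
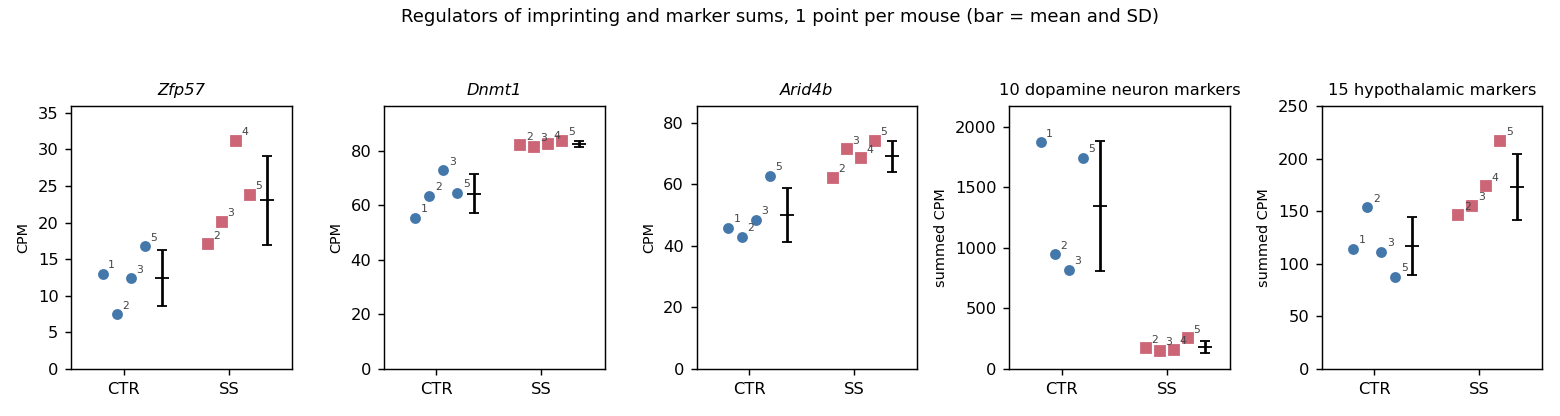
CPM of Zfp57, Dnmt1 and Arid4b and the summed CPM of 10 dopamine neuron and 15 hypothalamic markers, 1 point per mouse with its replicate number (circles CTR, squares SS) and the mean with SD (n = 4). The dopamine sum is 818 to 1870 CPM in CTR and 149 to 256 CPM in SS, without overlap, and the hypothalamic sum overlaps at CTR-2 and SS-2.

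A further 51 genes listed as imprinted gave 41 tested. Imprinting of genes on this list can also depend on the transcript or cell type. Whether they are imprinted in the VTA was not measured, since reads were not counted per allele. Of the genes tested, Th (log2 fold change -3.99, SE 0.35) and Ddc (-2.78, SE 0.24) passed the adjusted p of 0.05. Both are also markers of dopamine neurons, which synthesize dopamine with them. Without these, 39 genes had a median of 0.04, and 0 had an unadjusted p under 0.05. Sfmbt2, a Polycomb gene, had the next smallest p (log2 fold change 0.33, unadjusted p = 0.208).

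Markers of the cell types that a VTA punch can hold are given for the whole set. Of 10 dopamine neuron markers 9 were lower and 1 higher in SS. The adjusted p of 0.05 was passed by 7, all lower. Slc6a3, the dopamine transporter, was at 243 to 613 CPM in CTR and 2.72 to 11.5 CPM in SS. Those that did not pass were Pitx3 (log2 fold change -5.545, edgeR adjusted p = 0.0641), Foxa1 (-0.58, edgeR unadjusted p = 0.102) and Nr4a2 (0.16, edgeR unadjusted p = 0.436). Of 15 markers of hypothalamus and mammillary region 12 were tested, of which 10 were higher and 2 lower (Lhx9, log2 fold change -2.19, and Pomc, -0.46). None passed in edgeR, where 3 had an unadjusted p under 0.05 (Pmch, Trh and Hdc), and DESeq2 called 1, Trh (adjusted p 0.00222). The sums of the other 9 lists overlapped between the groups, at 513 to 585 CPM in CTR and 429 to 662 CPM in SS for GABA neurons (led by Gad2), 348 to 772 and 448 to 503 CPM for glutamate neurons (Slc17a6), 2050 to 3150 and 2470 to 2860 CPM for astrocytes (Slc1a2), and 22100 to 31400 and 25200 to 28000 CPM for oligodendrocytes (Mbp). They were 287 to 382 and 344 to 408 CPM for oligodendrocyte precursors (Gpr17), 165 to 236 and 160 to 178 CPM for microglia (Csf1r), 195 to 230 and 202 to 255 CPM for endothelium (Flt1), 31.9 to 47.1 and 37.2 to 51.8 CPM for leptomeninges (Col1a2), and 19.2 to 265 and 33.6 to 35.8 CPM for choroid plexus and ependyma (Ttr). Slc17a7, a cortical and hippocampal glutamate transporter gene, ranged from 13.9 to 403 CPM within CTR, and Ttr of the choroid plexus was at 234 CPM in CTR-5 and 3.67 to 18.7 CPM elsewhere. Single members of these lists differed more than the sums. An edgeR unadjusted p under 0.05 was found for Pvalb (log2 fold change -1.19), Slc17a7 (-2.16), Cx3cr1 (-0.28) and Ttr (-3.09), lower in SS, and for Col1a2 (0.59), higher. None of these passed the adjusted p of 0.05 in edgeR, and DESeq2 called Pvalb (adjusted p 0.0451). The part of these cell types in the values of the imprinted genes was not tested.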

How the data were processed

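RNA from VTA punches of 4 CTR and 4 SS mice was sequenced as 1 library per mouse. Per the study's methods, reads were trimmed (Cutadapt), aligned to mm10 (STAR) and assigned to genes of an Ensembl release (htseq-count), and the authors deposited the raw read counts. The tool versions and the strand setting are not given in the sources used here.

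Counts were analysed in R 4.3.3. filterByExpr of edgeR 4.0.16 (minimum count 10, minimum total count 15) left 16538 of 54735 genes. After TMM normalization the groups were compared with glmQLFit and glmQLFTest, with no term but group, and p-values were adjusted by Benjamini-Hochberg over all genes tested. A two-sided exact permutation test on log2 CPM (prior count 2) used the 70 ways to split the mice. CPM per kb used exon lengths of GENCODE M21 on GRCm38, another release than the counting used, from which positions were also taken. The limit given for a count of 0 is 3 counts per library and covers counting error only. p-values measure the spread between mice that may share litters.

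The imprinted genes and the lists were chosen with earlier results of these data known. Values per library are given for genes with an unadjusted p under 0.05 or without overlap and for the 10 most abundant per exon length. From the other imprinted genes and the regulators, up to 3 with the smallest p were named, and from each marker list its most abundant gene, except 1 that is not reported here. Pmch, Avp, Trh, Hdc, Lhx9, Pomc, Pitx3, Foxa1, Nr4a2, Pvalb, Cx3cr1, Slc17a7, Ttr and Trim27 were named after their values were seen. Promoters (found for 33 of the 41 genes) and microRNAs are from RefSeq, GRCm38.p6.

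Alternatives were DESeq2 1.42.0, limma 3.58.1 voom, edgeR with upper-quartile or DESeq2 scaling, 2 other filters on low counts, each library left out, the replicate number as a block, both Xist-positive libraries left out, Xist as a covariate, and CTR-1 and CTR-2 left out. The counts at an unadjusted p under 0.05 and without overlap were added to these after the data were seen. The tests were tested on simulated data.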

Additional observations from a re-analysis of the deposited data

Results flagged for a closer look

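In 74 groups of 4 libraries (37 genes in each of CTR and SS), 1 library stood apart from the other 3 in 5 cases, where chance gives 3.7. The measure is the gap to the nearest library divided by the range of the group on the log2 CPM scale, set against Dixon's 95% limit for 4 samples. SS-5 was lowest of SS for Dlk1 (0.869) and for Usp29 (0.907). CTR-2 was lowest of CTR for Mest (0.947). SS-3 was lowest of SS for Blcap (0.934), and SS-2 was highest of SS for Gnas (0.902).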

How the results depend on the processing

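The count of imprinted genes called was 0 in every alternative run except DESeq2, where it was 1 (Calcr, log2 fold change 1.84). The count at an unadjusted p under 0.05 was 10 (6.55% of all genes). It was 5 with the replicate block (4.6%) and 6 without CTR-1 and CTR-2 (6.34%). It was 12 with voom (7.56%), 12 without the Xist-positive libraries (10.6%) and 11 with Xist as a covariate (6.62%). With 1 library left out it was 6 to 10 (3.53 to 13.4%), the 6 being without CTR-3, SS-2 or SS-3 (6.95, 4.47 and 3.76%). The count without overlap was 4 (4.67% of all genes). It was 3 with upper-quartile normalization and with a mean count of at least 50 (Grb10 overlapped, 4.67 and 5.08% of all genes did not). It was 5 with no filter (3.29%), 10 without CTR-1 and CTR-2 (14.7%) and 15 without the Xist-positive libraries (20.1%). With 1 library left out it was 4 to 10. It was 7 without CTR-2 or SS-2 (7.61 and 7.69%) and 8 without CTR-3 or SS-5 (8.45 and 7.77%). It was 10 without CTR-5 (15%), 5 without CTR-1 (8.74%) and 4 without SS-3 or SS-4 (6.37 and 6.75%). Fewer libraries make overlap less likely by construction. The median log2 fold change of 0.139 was 0.077 with the replicate block and 0.065 (without CTR-1) to 0.194 (without SS-5) with 1 library left out. Replicate numbers gave no clear sign of pairing the samples. Correlations of deviations were -0.00625, -0.00767 and 0.0603 for the numbers 2, 3 and 5. CTR-5 correlated best with its own number, and CTR-2 and CTR-3 did not. With so few mice, these correlations cannot exclude a link such as a shared litter. With the block 9 of all genes were called in place of 14. Small log2 fold changes turned sign. This was the case with voom for Mkrn3 (-0.029), and with the replicate block for Ndn (0.026), Nnat (0.106), Ube3a (-0.027), Ppp1r9a (-0.009), Blcap (0.041), Trappc9 (0.043) and Gnas (0.047). Without the Xist-positive libraries it was so for Sgce (-0.046) and Asb4 (0.034), and without CTR-1 and CTR-2 for Rtl1 (0.040), Ndn (0.084), Nnat (0.109), Ube3a (-0.103), Blcap (0.065) and Gnas (0.087). With 1 library left out the ranges that crossed 0 were Nnat -0.098 to 0.119, Ube3a -0.034 to 0.331, Blcap -0.079 to 0.048, Gnas -0.147 to 0.039, Mkrn3 -0.173 to 0.547, Mirg -0.017 to 0.389, Sgce -0.078 to 0.124, Trappc9 -0.113 to 0.042. The causes were not tested. Low counts limit Calcr, Igf2, Asb4 and Mkrn3 most.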
